A study of Mus musculus with 9 samples.

Results

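Irradiated muscle constructs were set against unirradiated constructs that were kept in a dish beside an irradiated one. The libraries were chosen by their labels alone, 3 irradiated and 3 cocultured, 6 of the 9 libraries in the series. All 40879 gene symbols of the count tables entered, of which 15665 had a count in any of the 6 libraries, and 11980 passed the filter on low counts and were tested. The 3 libraries of the third group, normal constructs kept without an irradiated partner, entered the same statistical fit and are given beside the results as reference levels.

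All constructs were made of C2C12 cells, an established mouse myoblast line labelled wild type, embedded in extracellular matrix derived from muscle tissue. They grew for 2 days and then spent 10 days in differentiation medium with 10% equine serum. One dose of X-rays, 20 Gy, was given to the irradiated constructs to bring on senescence, and none to the normal and cocultured ones. RNA was profiled with a 3' end kit, which counts reads near the poly(A) tail.

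Some features of the model bound every comparison below. All cells come from 1 line, so the libraries hold no other animal or donor. The series text places 2 constructs of a condition in each dish and says that, of a mixed dish, only the unirradiated construct was collected. The irradiated libraries are therefore not stated to be the dish partners of the cocultured ones, and no label pairs them. That text gives 2 irradiated constructs, while the sample labels give 3. The labels call the replicates biological, but since constructs may share a dish, p-values measure the spread between these libraries. The contrast also holds 2 differences at once, irradiation and the partner in the dish, which cannot be told apart from these 6 libraries.

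Cells that carry heavy DNA damage can leave the cell cycle for good, a state known as senescence. Such cells keep their metabolism, and many secrete cytokines, growth factors and matrix-degrading enzymes, together called the senescence-associated secretory phenotype. p53 and its target Cdkn1a, an inhibitor of cyclin-dependent kinases, act early in this arrest. Differentiating myoblasts leave the cell cycle too, fuse into myotubes and build sarcomeres, so a culture of this kind holds arrested cells whatever its treatment.

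Total counts ran from 6485655 to 8290468 in the irradiated and from 7506605 to 8035763 in the cocultured libraries. Detected genes numbered 11126, 8306 and 8654 in irradiated replicates 1, 2 and 3, against 11851, 11667 and 10002 in the cocultured ones. Markers of the labelled cell type were present: each of the 8 myoblast and 10 myotube markers had a count in at least 1 of the 6 libraries, although the myoblast markers Myf5 and Msc had none in the irradiated ones. Of other cell types, 5 of 10 chondrocyte and osteoblast and 3 of 10 neural and Schwann markers were at 0 in all 6. So were 3 of 10 adipocyte, 2 of 10 macrophage and leukocyte and 2 of 5 blood markers. Of the 10 endothelial and 10 fibroblast markers, 1 each was at 0 in all 6. Having a count in some library thus does not set muscle markers apart from those of other types. In its share of muscle and mitochondrial genes, irradiated replicate 1 stood apart from the other 5 libraries. Adult sarcomere and Z-disc genes took 13.5% of its counts, against 1.18% to 3.18% in those 5, and mitochondrially encoded genes took 21.6%, against 10.8% to 13.4%. Normal replicate 3 shared this profile, at 17.1% and 29.7%. Irradiated replicate 1 also held the highest sums of endothelial and blood markers of the 6, at 103 and 112 CPM, against 2.07 to 29.5 and 0.31 to 16.1 CPM in the others. Summed fibroblast markers, mostly collagen and proteoglycan genes, were 8552 to 13885 CPM in the irradiated and 13248 to 17422 CPM in the cocultured libraries.

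More genes went without a single count in the irradiated libraries, and replicate 2, with the highest total of the 6, had the most such genes. Of 2940 genes whose mean in the cocultured libraries lay between 20 and 50 CPM (counts scaled to a common library size), 6.77%, 20.9% and 17.8% had no count in irradiated replicates 1, 2 and 3. In the cocultured libraries the shares were 0.204%, 0.238% and 1.90%, and in the normal ones 1.497%, 0.238% and 5.41%. The irradiated libraries were above all 6 others, with replicates 2 and 3 the highest, while the normal and cocultured ones overlapped.

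Between 100 and 200 CPM the shares were 0.111%, 0.666% and 0.444% in the irradiated libraries. Of 7902 genes with at least 10 counts in each cocultured library, 182 (2.30%) had none in any irradiated library, and a further 421 (5.33%) had counts in irradiated replicate 1 but none in replicates 2 and 3. The reverse was rarer: of 5463 genes with at least 10 counts in each irradiated library, 6 (0.110%) had none in the cocultured ones. Replicates also spread more in the irradiated group. For genes between 50 and 200 CPM the median log2 SD was 0.71 among irradiated and 0.42 among cocultured libraries. Rank correlations were 0.634 to 0.641 between irradiated and 0.764 to 0.837 between cocultured libraries. Across the 2 groups they were 0.636 to 0.713, so irradiated libraries were no more alike among themselves than to the cocultured ones. The part of this gene loss in the differences below was not tested, and it is given again beside the genes it touches.

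**Figure D1:**
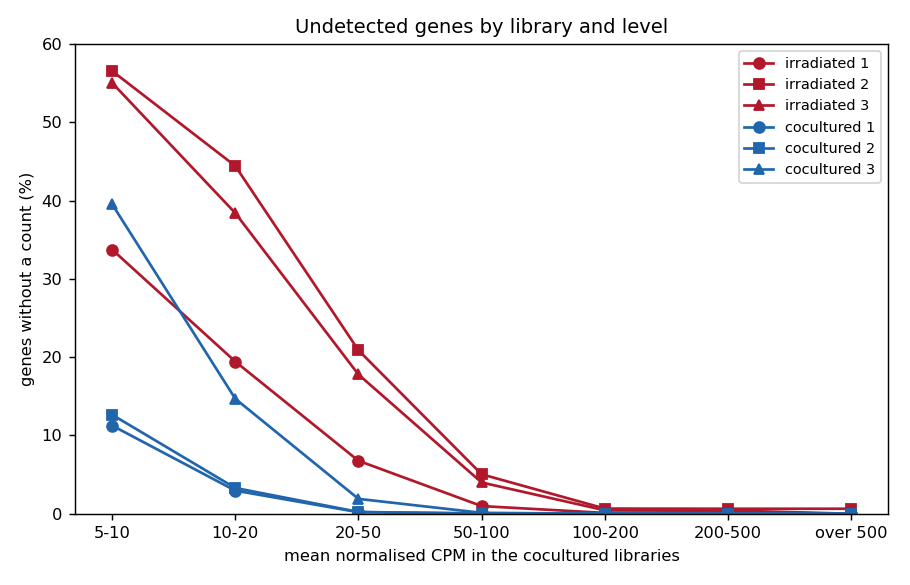
Percentage of genes without a count (y axis) in each of the 3 irradiated (red) and 3 cocultured (blue) libraries, by the genes' mean normalised CPM in the cocultured libraries (x axis). Between 20 and 50 CPM the irradiated libraries lie at 6.77% to 20.9% and the cocultured ones at 0.204% to 1.90%. Genes were binned by the cocultured mean, so the bins themselves favour counts in that group.

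Only 4 genes passed the test across all genes (edgeR, adjusted p under 0.05), and all 4 were lower in the irradiated constructs: Nt5e, Rrp1b, Gap43 and Hspa4l. They make up 0.0334% of the genes tested, and the share called higher was 0%. Without adjustment 1148 genes had p under 0.05, 270 higher and 878 lower, while DESeq2 called 138 higher and 337 lower and limma voom 22 and 83. In a simpler count, 467 genes (3.9%) had all 3 irradiated libraries above all 3 cocultured ones, and 1268 (10.6%) had them all below. These shares, 3.9% and 10.6%, are the background for every count of non-overlapping members given below. The median log2 difference over all genes was -0.10. It was 0.00 with the DESeq2 size factors and -0.28 with library totals, so small shifts of a list are read against it.

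**Figure D2:**
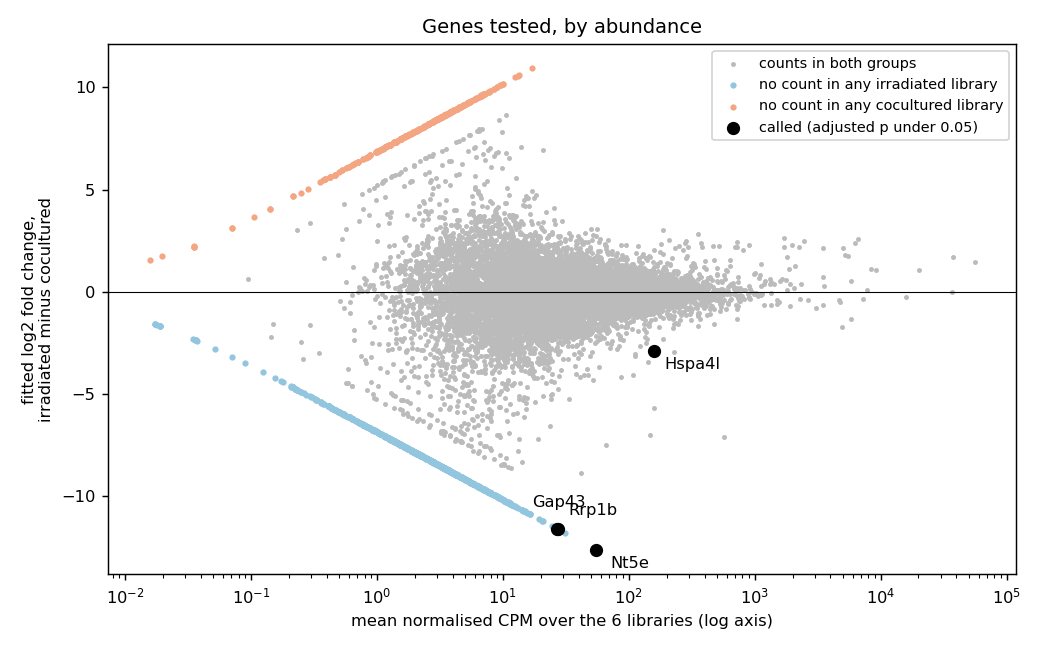
Fitted log2 fold change, irradiated minus cocultured (y axis), against the mean normalised CPM over the 6 libraries (x axis, log scale) for the 11980 genes tested. The 4 genes called are black; blue and orange points had no count in any irradiated or any cocultured library, and their fitted values are set by the prior count and are no measure of size.

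The sequences before the start sites of the called genes are shown because these genes were absent or low in every irradiated library. They are the 250 bases upstream of the annotated start, from RefSeq on GRCm38.p6, which is another build than that named for the counts. A promoter was matched for Nt5e (chr9:88327359-88327608), Rrp1b (chr17:32035912-32036161, the outermost of 2 annotated starts) and Hspa4l (chr3:40745363-40745612), all on the plus strand. Capitals mark matches, on either strand, to the GC box GGGCGG, the CCAAT box and the E-box CANNTG.
Nt5e: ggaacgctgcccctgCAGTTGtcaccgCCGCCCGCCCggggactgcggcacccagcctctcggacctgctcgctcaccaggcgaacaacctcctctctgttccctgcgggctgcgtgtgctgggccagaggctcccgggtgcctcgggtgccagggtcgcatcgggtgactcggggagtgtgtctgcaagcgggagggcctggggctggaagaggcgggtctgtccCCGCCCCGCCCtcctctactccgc
Rrp1b: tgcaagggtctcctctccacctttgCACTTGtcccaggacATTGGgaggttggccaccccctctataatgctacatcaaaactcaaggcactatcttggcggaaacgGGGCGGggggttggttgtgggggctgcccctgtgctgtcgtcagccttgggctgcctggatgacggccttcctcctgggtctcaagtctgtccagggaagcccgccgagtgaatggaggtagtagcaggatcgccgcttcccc
Hspa4l: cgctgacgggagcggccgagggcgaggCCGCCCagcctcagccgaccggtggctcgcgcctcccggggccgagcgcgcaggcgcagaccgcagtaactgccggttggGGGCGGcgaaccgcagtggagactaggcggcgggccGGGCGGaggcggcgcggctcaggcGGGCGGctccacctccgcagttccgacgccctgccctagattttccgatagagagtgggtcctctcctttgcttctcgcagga
GC boxes stood in all 3 windows, with 4 matches in Nt5e, 1 in Rrp1b and 4 in Hspa4l, and the matches in Nt5e form 2 overlapping pairs. Of all 32851 promoter windows of this length 32.7% hold a GC box, 33.8% a CCAAT box and 66.2% an E-box. Rrp1b held 1 CCAAT box and 1 E-box, and Nt5e 1 E-box. Searches for the TATA box TATAAA (in 12.4% of windows), the AP-1 site TGANTCA (6.75%) and the heat shock element core GAANNTTC (6.69%), on both strands, found no match in these windows. These matches describe the sequence alone.

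Nt5e encodes CD73, the cell surface enzyme that turns AMP into adenosine. No irradiated library held a count, while the cocultured libraries stood at 83.9, 107 and 140 CPM and the normal ones at 171, 80.0 and 134. The irradiated libraries were thus apart from all 6 others, among which the groups overlapped. Nt5e fell at least 877-fold relative to the cocultured mean (edgeR adjusted p = 3.39e-04). The limit sets that mean against the 3 counts that a total of 0 over the group allows. It covers counting error only in the group without counts, as do all such limits below. A 95% interval on the counts of both groups reached down to 710-fold. Nt5e passed the test under 22 of its 23 alternatives and missed it with the 6 libraries fitted alone (adjusted p = 0.0727).

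Rrp1b, a nucleolar protein that takes part in ribosomal RNA processing, showed the same pattern at a lower level. Counts were absent from the irradiated libraries, against 61.7, 71.6 and 30.4 CPM in the cocultured and 79.9, 47.3 and 59.1 CPM in the normal ones. Rrp1b fell at least 434-fold (edgeR adjusted p = 0.0134), and 356-fold at the low end of the 95% counting interval. Gap43, a growth-associated membrane protein best known from axon growth cones, was likewise without counts in the irradiated libraries, against 54.1, 56.2 and 51.7 CPM in the cocultured and 49.7, 76.1 and 27.1 CPM in the normal ones. Gap43 fell at least 429-fold (edgeR adjusted p = 0.0144), and 349-fold at the low end of that interval. By their mean over the 6 libraries both belong to the 5081 genes between 10 and 50 CPM, of which 0.886% were uncounted in all irradiated and 0.118% in all cocultured libraries. Nt5e belongs to the 2491 genes between 50 and 200 CPM, where those shares were 0.0401% and 0%. Nt5e was itself the only gene behind that 0.0401%. The bins use a mean that includes the irradiated zeros, and the shares include the genes named. They are therefore no independent background for these genes. As these are bulk samples, fewer cells that express a gene and less RNA per cell cannot be told apart.

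Gap43 is also 1 of the 10 neural and Schwann markers, whose summed level was 7.86 to 31.3 CPM in the irradiated and 117 to 183 CPM in the cocultured libraries. Among them Nefl and Tubb3, cytoskeletal proteins of neurons, had 25 and 24 counts in the irradiated libraries and 1820 and 607 in the cocultured ones. Sox10, Snap25 and Gfap, which define glia and neurons, were at 0 in all 6.

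Hspa4l, a chaperone of the Hsp110 family that helps Hsp70 proteins release their clients, was the only called gene with counts in every library. It stood at 40.7, 34.8 and 38.2 CPM in the irradiated, 226, 233 and 374 in the cocultured and 221, 138 and 123 in the normal libraries. All irradiated values were below all 6 others. It fell by 2.87 on the log2 scale (SE 0.39; edgeR adjusted p = 0.0144). The other 33 members of the cytosolic heat shock list did not pass the test, and the list's median log2 difference was -0.14.

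These 3 weaker calls depended on single libraries. Without normal replicate 1, adjusted p was 0.0616 for Rrp1b and for Gap43 and 0.0505 for Hspa4l. Without normal replicate 3 it was 0.0543, 0.0505 and 0.0505 in the same order. Without cocultured replicate 3 it was 0.0611 for Gap43 and 0.149 for Hspa4l. Normal libraries enter this contrast only through the shared spread, scaling and filter. With the 6 libraries fitted alone no gene passed, and 620 of 10060 genes had an unadjusted p under 0.05.

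**Figure D3:**
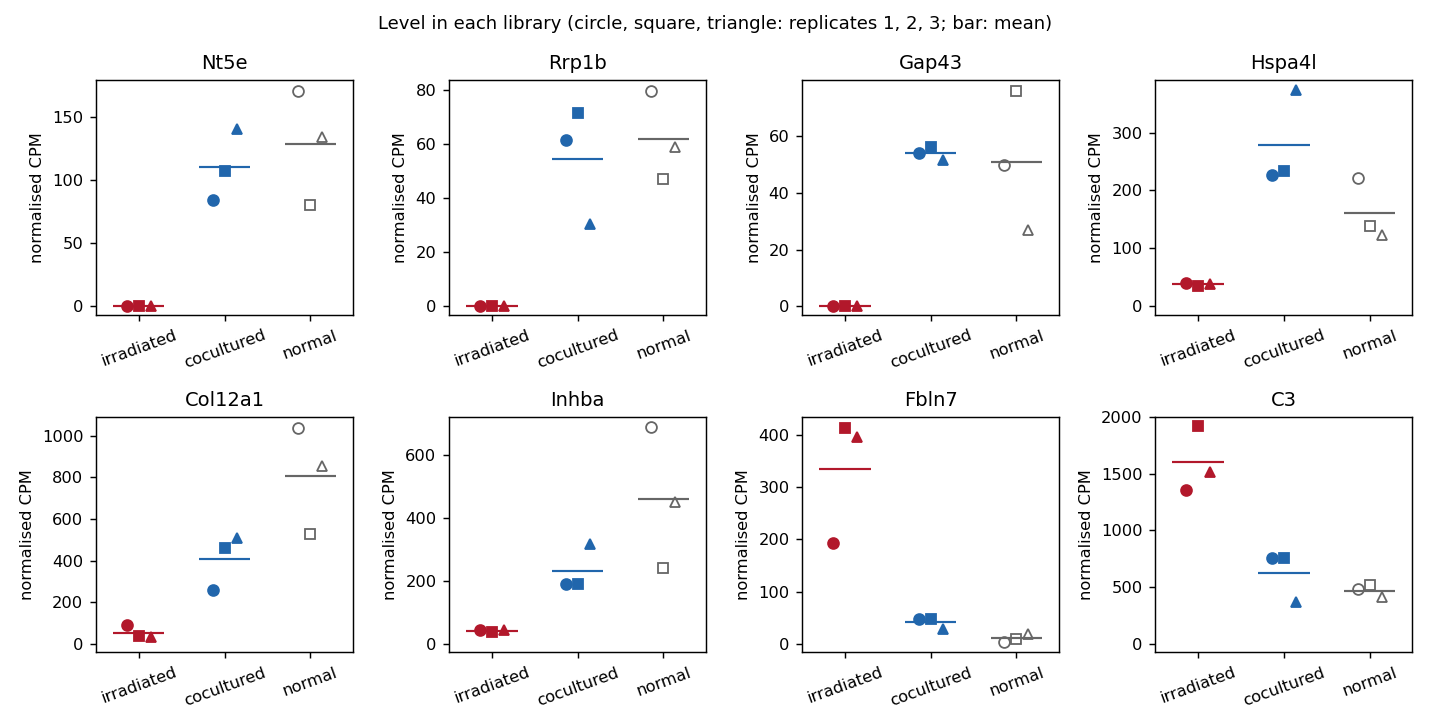
Normalised CPM (y axis, linear) of 8 genes in each irradiated, cocultured and normal library, with a bar at the group mean. The 4 genes of the upper row passed the test: Nt5e, Rrp1b and Gap43 lie at 0 in all irradiated libraries and Hspa4l at 34.8 to 40.7. The 4 genes of the lower row did not pass; their irradiated and cocultured libraries do not overlap.

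Leaving out irradiated replicate 1 raised the count from 4 to 97 genes, 1 higher and 96 lower. Of these 97, 71 had no count in irradiated replicates 2 and 3, and 62 of the 71 had counts in replicate 1. The added calls were thus mostly genes undetected in the pair of libraries with the fewest detected genes. Without replicates 2 and 3, with replicate 1 as the lone irradiated library and its spread borrowed from the other groups, 203 were higher and 246 lower. The 4 genes were among those called in both of these fits.

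Genes just short of the threshold included several secreted and matrix proteins. Col12a1, a fibril-associated collagen, stood at 89.6, 35.7 and 34.8 CPM in the irradiated, 258, 460 and 507 in the cocultured and 1039, 527 and 852 in the normal libraries. Its log2 difference was -2.94 (SE 0.47; adjusted p = 0.0554). Inhba, the subunit of activin A, stood at 42.6, 37.6 and 42.6 CPM against 189, 191 and 318, with a difference of -2.51 (SE 0.42; adjusted p = 0.0637), and at 688, 240 and 449 CPM in the normal libraries. For both genes the irradiated libraries were the lowest of all 9 and varied little beside the gap.

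Other genes without overlap were chosen after their values were seen. Wfdc17, a small secreted protein with a protease inhibitor fold, had 0, 0.188 and 0.235 CPM in the irradiated and 9.11, 46.4 and 196 in the cocultured libraries (adjusted p = 0.0554). Sprr1a, a small proline-rich protein known as a stress and injury marker, had no count against 60.6, 35.8 and 27.7 CPM (at least 329-fold lower, adjusted p = 0.0637). Trib1, a pseudokinase that promotes protein degradation, stood at 33.6, 24.5 and 37.0 CPM against 146, 142 and 131 (adjusted p = 0.137). Axl, a receptor tyrosine kinase that binds Gas6, stood at 64.7, 76.3 and 67.2 CPM against 183, 263 and 215 (adjusted p = 0.165). In Trib1 and Axl each group was tight, every library had counts and the groups were far apart.

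No gene passed the test in the higher direction. Fbln7, an extracellular matrix protein of the fibulin family, came nearest, at 193, 414 and 396 CPM in the irradiated against 47.8, 46.8 and 29.2 in the cocultured libraries. The log2 difference was 3.02 (SE 0.54; adjusted p = 0.124), and the normal libraries were lower again, at 4.31, 8.86 and 18.9 CPM. Plpp3, a phosphatase that degrades bioactive phospholipids, stood at 423, 240 and 338 CPM against 93.4, 117 and 107 (difference 1.66, adjusted p = 0.184). Cbr2, a carbonyl reductase, stood at 470, 233 and 195 CPM against 72.9, 86.2 and 16.05 (difference 2.36, adjusted p = 0.302). In these 3 genes all irradiated libraries were above all cocultured ones.

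Mylk3, a myosin light chain kinase, was 1 of the 6 genes absent from the cocultured libraries while counted in each irradiated one. It had 6.81, 21.5 and 29.4 CPM in the irradiated libraries, at least 179-fold more than the floor in the cocultured ones, and 0, 3.64 and 4.65 CPM in the normal ones (adjusted p = 0.493).

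Cell cycle genes were lower as a group. Of the 57 genes tested for cell cycle and mitosis (cyclins, kinesins, kinetochore and spindle proteins), 55 had a negative and 2 a positive log2 difference, and none passed the test. In 30 members (52.6%) all irradiated libraries were below all cocultured ones, against a background of 10.6%, and in none were they all above, against 3.9%. The median log2 difference was -4.06, or -3.97 with genes at 0 set to their bound, beside -0.10 over all genes. Summed levels were 420, 310 and 243 CPM in the irradiated and 1922, 1750 and 1297 CPM in the cocultured libraries, so the groups were far apart. Of the normal libraries, at 1008, 2215 and 726 CPM, 1 was above all 6 and the other 2 were between the groups.

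Most of these genes were scarce. Just 2 of the 57 exceeded a mean of 50 CPM over the 6 libraries, where the median difference was -1.88, and 18 were without counts in every irradiated library. Most of them were thus at levels where genes often went uncounted in irradiated replicates 2 and 3. Replicate 1, the irradiated library with the fewest uncounted genes, also held a low sum, 420 CPM. With it as the lone irradiated library the list's median, with genes at 0 set to their bound, was -3.14, and 31 of the 60 genes compared were at 0 in it. Without it the bounded median was -5.38, with 35 of 60 at 0.

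Top2a, the topoisomerase that untangles replicated chromosomes, was among the 2 members with the smallest p. It stood at 15.8, 29.4 and 9.39 CPM against 154, 161 and 54.8 in the cocultured libraries (difference -2.76, SE 0.61; adjusted p = 0.206). Spc25, a kinetochore protein of the Ndc80 complex, had no count against 22.4, 31.4 and 93.9 CPM (at least 392-fold lower; adjusted p = 0.183). Mki67, the proliferation marker Ki-67, stood at 5.96, 0 and 0 CPM against 89.0, 28.6 and 40.1 (adjusted p = 0.493). Kif11, a motor that separates spindle poles, had no count against 17.9, 9.82 and 10.96 CPM (at least 103-fold lower; adjusted p = 0.453). Cdk1, the kinase that drives entry into mitosis, did not follow them, at 10.0, 0 and 51.9 CPM against 45.4, 60.2 and 16.5, with groups that overlapped.

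Genes of DNA replication showed a smaller median. Of 45 tested, 33 were negative and 12 positive, 11 had all irradiated libraries below, and the median log2 difference was -0.90. With genes at 0 set to their bound it was -2.82 without irradiated replicate 1 and -1.11 with that library as the lone irradiated one. Summed levels were 593 to 654 CPM in the irradiated and 814 to 1005 CPM in the cocultured libraries. Tk1, thymidine kinase of S phase cells, had no count against 24.6, 21.5 and 2.60 CPM, and Pold3, a subunit of DNA polymerase delta, none against 17.5, 16.8 and 7.23 CPM. Both lay in the range where uncounted genes were common. Among 37 genes of DNA damage signalling and repair the median was -0.16, with 16 positive and 21 negative. Brca1, of double-strand break repair, had no irradiated count against at most 12.8 CPM.

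Lmnb1, the nuclear lamin whose loss is used as a marker of senescence, stood at 13.0, 0 and 0 CPM against 59.4, 33.0 and 41.4 (adjusted p = 0.557). In the list of lamins and nuclear envelope proteins, 9 of 23 tested members had all irradiated libraries below and none had them all above. The median was -0.52, and -0.26 for the 9 members over 50 CPM. With each library left out it ran from -0.71 to -0.27. Syne3, a nesprin that links the nucleus to the cytoskeleton, had no count against 12.1, 6.72 and 48.3 CPM. Lmnb1 and Syne3 had cocultured means of 44.6 and 22.4 CPM, where genes often went uncounted in irradiated replicates 2 and 3. Sun1, the partner of Syne3 in the inner nuclear membrane, stood at 14.3, 0 and 15.96 CPM against 70.4, 104 and 88.8 (adjusted p = 0.493), with no overlap.

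Among p53 targets none passed the test, and the more abundant members lay higher. Of 41 tested, 23 were positive and 18 negative, 6 (14.6%) had all irradiated libraries above and 3 (7.32%) all below, and the median was 0.06. For the 11 members over 50 CPM it was 0.85. Summed levels, to which Cdkn1a adds much, were 3063, 3415 and 3452 CPM in the irradiated, 2605, 2692 and 2910 in the cocultured and 2356, 2618 and 2053 in the normal libraries. The irradiated sums were above both groups under the TMM scaling. As a share of total counts, the sum of irradiated replicate 1 lay below those of the cocultured libraries. The list's median was -0.19 with library totals, beside -0.28 over all genes. Cdkn1a stood at 1390, 1701 and 1754 CPM in the irradiated, 1225, 1207 and 1311 in the cocultured and 969, 1365 and 655 in the normal libraries. Under this scaling the irradiated values were all above the cocultured ones by a narrow margin (difference 0.37, SE 0.33; adjusted p = 0.897). Irradiated replicate 1 held 6528 Cdkn1a counts in a total of 6485655, against 11435 in 7792558 in cocultured replicate 1. As a share of total counts, Cdkn1a in irradiated replicate 1 was thus below every cocultured library. Mdm2, the ubiquitin ligase that p53 induces against itself, overlapped, at 71.3, 77.2 and 51.7 CPM against 75.4, 94.3 and 213. Gdf15, a secreted stress cytokine, overlapped too, at 27.7, 11 and 64.2 CPM against 37.8, 46.8 and 53.5. The p53 targets Lif and Pmaip1 had the smallest p of the list and no irradiated count. In the cocultured libraries Lif stood at 0, 7.76 and 14.1 CPM and Pmaip1 at 27.6, 0 and 0. Both genes thus overlapped between the groups, and the Pmaip1 difference rested on cocultured replicate 1 alone.

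Among 20 cell cycle inhibitors and senescence markers the median was -0.35, with 5 members all below and 1 all above. Hmga2, a chromatin protein found in senescent nuclei and in growing cells, stood at 54.1, 19.1 and 38.5 CPM against 123, 115 and 217 (adjusted p = 0.248). Cdkn2c, an inhibitor of Cdk4 and Cdk6, had no count against 13.7, 5.89 and 5.31 CPM. Glb1, the lysosomal galactosidase behind the senescence stain, overlapped between groups, at 10.6, 25.5 and 40.01 CPM against 19.7, 6.41 and 14.01.

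Several cytokines of the secretory phenotype had lower levels in the irradiated than in the cocultured libraries, and none passed the test. Il6 stood at 0, 1.60 and 70.6 CPM in the irradiated, 159, 347 and 275 in the cocultured and 468, 149 and 364 in the normal libraries (difference -3.43, SE 1.31; adjusted p = 0.493). Il1a, an upstream alarmin of the phenotype, stood at 2.56, 0 and 0 CPM against 48.9, 168 and 177 (difference -7.48, SE 1.40; adjusted p = 0.144). Il33, a nuclear alarmin, stood at 37.3, 5.27 and 44.5 CPM against 176, 203 and 70.1 (adjusted p = 0.375). In these 3 the irradiated libraries were all below, though Il6 varied widely among them.

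Ccl2, a chemokine that attracts monocytes, overlapped, at 0.639, 8.56 and 170 CPM against 18.2, 82.6 and 110. Of 27 tested cytokines and chemokines, 12 were positive and 15 negative, 6 were all below and 1 all above, and the median was -0.23. Cxcl12, the chemokine that binds Cxcr4, went the other way, at 817, 1254 and 784 CPM against 378, 360 and 246 (difference 1.54, SE 0.55; adjusted p = 0.493), with no overlap.

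NF-kB subunits and targets had a median of -0.68 over 31 genes, with 7 all below and 3 all above. Summed levels were 4287, 5101 and 4526 CPM in the irradiated and 5268, 11176 and 16334 in the cocultured libraries, which did not overlap, though cocultured replicate 1 lay close to the irradiated ones. Ptgs2, the inducible cyclooxygenase of prostaglandin synthesis, stood at 7.67, 0 and 0 CPM against 111, 432 and 343 (adjusted p = 0.184), and at 1274, 272 and 440 in the normal libraries. Lcn2, an iron-binding acute phase protein, stood at 21.7, 19 and 26.8 CPM against 57.0, 167 and 379 (difference -3.16, SE 0.69; adjusted p = 0.203). Levels in the cocultured group spanned a wide range for all 3 of these quantities.

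Together with Nt5e and Ptgs2, the prostaglandin and adenosine list had 6 of 21 tested members all below and 1 all above. Its median was -0.32, and its summed level was 803, 851 and 798 CPM against 1116, 1650 and 1496 CPM. Of the markers that define leukocytes, Aif1 and Adgre1 were at 0 in all 6 libraries, and Ptprc had 1 count in the 6. The summed level of the 10 macrophage and leukocyte markers was 1.29 to 27.3 CPM in the irradiated and 20.9 to 169 CPM in the cocultured libraries, with Cd14, a receptor that other cells express too, at 231 and 2962 counts. Csf1r and Cd68 went the other way, with 75 and 11 counts in the irradiated libraries and 0 in the cocultured ones.

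Immediate early genes, which cells switch on within minutes of a stimulus, lay lower as a list, with none passing the test. Of 37 tested, 29 were negative and 8 positive, 11 (29.7%) were all below and none all above, and the median was -0.95. Summed levels were 2244, 2390 and 2260 CPM in the irradiated, 4019, 3802 and 3691 in the cocultured and 5803, 4425 and 3887 in the normal libraries, tight within the first 2 groups and far apart. The median ranged from -1.03 to -0.66 with each library left out. Nr4a2, an orphan nuclear receptor, stood at 18.7, 0 and 0.235 CPM against 127, 325 and 484 (adjusted p = 0.317). Ier3, a survival factor, stood at 161, 238 and 152 CPM against 370, 448 and 291 (difference -1.01, SE 0.33; adjusted p = 0.493). Junb, a subunit of AP-1, overlapped, at 418, 432 and 344 CPM against 576, 405 and 478.

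Growth factors lay on both sides, and the list's median over 51 genes was -0.25, with 11 all below and 3 all above. Grem1, an antagonist of bone morphogenetic proteins, stood at 115, 64.2 and 126 CPM against 326, 348 and 378 (difference -1.78, SE 0.35; adjusted p = 0.165). Fgf7, a growth factor for epithelia, stood at 26.2, 9.22 and 33.9 CPM against 91.3, 117 and 228 (adjusted p = 0.219). Hgf, which activates muscle satellite cells, was on the other side, at 571, 808 and 805 CPM against 405, 526 and 288 (difference 0.84, SE 0.33; adjusted p = 0.493). Stc1, a secreted glycoprotein, stood at 1.06, 0 and 23.9 CPM against 50.03, 1098 and 2278, so the cocultured libraries themselves ranged widely.

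In the insulin-like growth factor system, 13 of 17 tested genes were negative and the median was -0.50. Igfbp2, a carrier of these factors, stood at 23.4, 13.2 and 0 CPM against 186, 232 and 189 (difference -4.06, SE 1.04; adjusted p = 0.317). Igf1r, their receptor, stood at 113, 118 and 169 CPM against 236, 256 and 388 (difference -1.14, SE 0.37; adjusted p = 0.493). Both had no overlap. Among 35 TGF-beta receptors, signalling and response genes the median was -0.46, with 5 all below and none all above. Ccn2, a matricellular protein induced by TGF-beta and by tension, stood at 15.5, 62.3 and 64.6 CPM against 199, 277 and 188 (difference -2.22, SE 0.52; adjusted p = 0.255). Bmpr2, a receptor of bone morphogenetic proteins, stood at 50.3, 74.2 and 38.5 CPM against 176, 78.0 and 118, apart by a narrow margin.

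Adhesion genes lay lower as a list, again with none passing the test. Of 35 integrins and focal adhesion genes, 28 were negative and 7 positive, 7 (20%) were all below and none all above, and the median was -0.68. Summed levels were 2379, 3110 and 2726 CPM against 4055, 3928 and 3498 CPM, without overlap. Zyx, a focal adhesion protein that responds to tension, stood at 48.3, 80.4 and 171 CPM against 211, 225 and 193 (adjusted p = 0.493). Csrp1, which binds actin filaments, stood at 74.7, 20.5 and 18.4 CPM against 107, 116 and 94.0 (adjusted p = 0.493).

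Matrix genes had no common direction. The median was -0.16 over 21 interstitial collagens, -0.25 over 17 basement membrane genes and -0.02 over 35 matrix glycoproteins. Col6a1, of the microfibrillar collagen around muscle fibres, stood at 317, 546 and 554 CPM against 216, 185 and 139 (difference 1.39, SE 0.37; adjusted p = 0.362), opposite to Col12a1. Col1a1, of the main fibrillar collagen, overlapped widely, at 166, 560 and 89.1 CPM against 185, 206 and 51.9. Fbln1, another fibulin, stood at 267, 189 and 224 CPM against 115, 48.5 and 48.3 (difference 1.68, SE 0.45; adjusted p = 0.366). Aebp1, a collagen-binding protein, stood at 751, 1022 and 625 CPM against 472, 368 and 297 (adjusted p = 0.453).

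Other matrix genes lay below. Of 27 proteoglycan and hyaluronan genes, 18 were negative and 9 positive, 7 (25.9%) were all below and 3 (11.1%) all above, and the median was -0.36, but their sums overlapped, at 7729 to 10541 CPM against 9930 to 13280 CPM. Of the 17 basement membrane genes 3 were all below and 1 all above. Lamc1, a laminin chain, stood at 12.8, 44.4 and 83.2 CPM against 113, 211 and 174 (adjusted p = 0.477), and Lama4, another, at 41.3, 45.7 and 87.3 CPM against 141, 120 and 138 (adjusted p = 0.493). Prg4, the lubricating proteoglycan lubricin, stood at 18.95, 8.75 and 0.117 CPM against 182, 201 and 106 (difference -4.15, SE 1.01; adjusted p = 0.276). Sdc4, a heparan sulphate proteoglycan of focal adhesions, stood at 279, 123 and 125 CPM against 432, 403 and 522 (adjusted p = 0.375). In these 4 no irradiated library reached the lowest cocultured one.

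Matrix proteases and inhibitors split evenly, 17 positive and 17 negative, with a median of 0.02. Their summed level nonetheless lay apart under the TMM scaling, at 10466, 10010 and 10246 CPM in the irradiated and 6737, 8174 and 7640 CPM in the cocultured libraries, since a sum follows its most abundant members. As a share of total counts, the sum of irradiated replicate 1 lay below those of the cocultured libraries. Mmp11, a stromelysin, stood at 33.0, 11.2 and 28.3 CPM against 70.4, 109 and 81.3 (adjusted p = 0.493). Among 29 collagen processing and crosslinking genes the median was 0.12. Loxl2, a lysyl oxidase that crosslinks collagen, stood at 3.19, 0 and 6.69 CPM against 65.5, 55.5 and 9.72.

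Complement and antigen presentation lists had medians above 0 without a call. Over 28 complement and acute phase genes the median was 0.49, with 6 (21.4%) all above and 3 all below, but it was -0.00 without irradiated replicate 1 and the summed levels overlapped. For the 15 members over 50 CPM the median was on the other side, at -0.17. C3, the central complement component, stood at 1358, 1923 and 1520 CPM against 759, 756 and 364, and at 481, 519 and 408 in the normal libraries (difference 1.35, SE 0.35; adjusted p = 0.329). Over 13 genes of MHC class I and antigen processing the median was 0.39, and -0.40 without irradiated replicate 3. Tapbp, tapasin, which loads peptides onto class I molecules, stood at 301, 237 and 273 CPM against 124, 132 and 87.4 (difference 1.24, SE 0.33; adjusted p = 0.362). Psme1, an activator of the proteasome, was on the other side, at 29.8, 22.7 and 18.3 CPM against 53.7, 53.7 and 72.8. The interferon response list had a median of 0.13 over 25 genes.

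The sarcomere difference rested on 1 library. Of 54 adult sarcomere and Z-disc genes, 49 were positive, with a median of 1.76, but it was 0.10 without irradiated replicate 1. Summed levels were 186282, 23289 and 21434 CPM in the irradiated and 22397, 9821 and 26973 in the cocultured libraries, and irradiated replicates 2 and 3 lay within the cocultured range. All irradiated libraries were above in 4 members (7.41%), against a background of 3.9%, and below in 1 (1.85%), against 10.6%. Ckm, muscle creatine kinase, stood at 7258, 702 and 553 CPM against 675, 139 and 1024. Acta1, skeletal actin, stood at 18614, 3117 and 2770 CPM against 2780, 1361 and 2789. Myh4, a fast myosin heavy chain, stood at 29361, 2538 and 2124 CPM against 2098, 414 and 3185. In all 3, irradiated replicate 1 alone was high.

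Genes of calcium handling and excitation had a median of 0.91 over 41 genes and 0.24 without that library, and the nuclear-encoded respiratory chain 0.39 over 70 genes and -0.02 without it. The developmental and slow sarcomere list kept a median of 0.36 to 0.78 over 22 genes with each library left out. Tnnc1, the slow and cardiac troponin C, stood at 559, 493 and 526 CPM against 288, 381 and 310 (difference 0.69, SE 0.28; adjusted p = 0.493), tight and without overlap, though the normal libraries, at 510, 519 and 427 CPM, lay near the irradiated ones. Ankrd1, a titin-binding stress protein, was opposite, at 129, 365 and 286 CPM against 697, 581 and 440. Ndufv1, a subunit of complex I, stood at 329, 157 and 138 CPM against 56.5, 51.0 and 107 (difference 1.54, SE 0.48; adjusted p = 0.493).

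Genes of differentiation showed no common direction. Myog, the transcription factor of myocyte commitment, stood at 525, 129 and 295 CPM against 370, 287 and 167. Myh3, embryonic myosin, stood at 60.5, 246 and 352 CPM against 277, 263 and 83.4, and both genes overlapped. The median over 29 myogenic transcription factors and Id inhibitors was -0.27, with 2 all above and 2 all below, and over 31 fusion and membrane repair genes -0.07. Myf5, a factor of undifferentiated myoblasts, had no irradiated count against 2.89, 12 and 32.0 CPM. Cdh11, a cadherin of mesenchymal cells, stood at 84.1, 77.0 and 50.1 CPM against 15.96, 22.2 and 22.0 (difference 1.81, SE 0.69; adjusted p = 0.493), without overlap.

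Lysosome and autophagy genes lay higher as a list, with none passing the test. Of 52 tested, 38 were positive and 14 negative, 7 (13.5%) were all above and 3 all below, and the median was 0.37, ranging from 0.34 to 0.42 with each library left out. Summed levels were 11920, 11864 and 12508 CPM in the irradiated, 8825, 10584 and 10436 in the cocultured and 10352, 10708 and 8572 in the normal libraries. Under the TMM scaling the irradiated sums were thus apart from both groups. As a share of total counts, the sum of irradiated replicate 1 lay below those of the cocultured libraries. With that replicate as the lone irradiated library the list's median was 0.15. Npc2, a lysosomal carrier of cholesterol, stood at 1306, 1297 and 1384 CPM against 652, 905 and 919 (difference 0.69, SE 0.30; adjusted p = 0.493). Atp6ap1, an accessory subunit of the proton pump, stood at 267, 265 and 175 CPM against 60.6, 138 and 91.7 (difference 1.28, SE 0.37; adjusted p = 0.421). Hexa, a hexosaminidase, stood at 254, 226 and 224 CPM against 103, 123 and 158. The list's median was 0.17 with library totals, beside -0.28 over all genes.

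Metabolic lists leaned in different directions. Among 39 genes of glycolysis and the hypoxia response, 29 were negative and 10 positive, 10 (25.6%) were all below and 1 all above, and the median was -0.64. Their sums overlapped, at 7235, 3718 and 3931 CPM against 6398, 5473 and 5288. Hif1a, the oxygen-regulated transcription factor, stood at 62.2, 80.7 and 81.7 CPM against 162, 156 and 188 (difference -1.17, SE 0.35; adjusted p = 0.453). Vegfa, a growth factor for vessels, stood at 62.8, 88.8 and 57.8 CPM against 224, 155 and 113 (difference -1.23, SE 0.41; adjusted p = 0.493). Both had no overlap.

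The atrophy, FoxO and calpains list had a median of -0.08 over 30 genes, yet its sum was 8955, 10278 and 11070 CPM against 17331, 16990 and 17044. Mt2, a metal-binding metallothionein, supplied most of that gap, at 1885, 3695 and 4294 CPM against 8145, 8308 and 8621 (difference -1.34, SE 0.44; adjusted p = 0.493), and its normal libraries, at 3666, 6253 and 2591, overlapped the irradiated ones. Eif4ebp1, a repressor of translation under mTOR, stood at 49.2, 35.7 and 38.0 CPM against 131, 170 and 93.5 (adjusted p = 0.493).

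Antioxidant genes had a median of 0.15 over 49, with members on both sides. Sod3, the extracellular superoxide dismutase, stood at 165, 169 and 174 CPM against 310, 570 and 741 (difference -1.68, SE 0.40; adjusted p = 0.255). Selenop, a selenium carrier, stood at 138, 190 and 212 CPM against 36.3, 90.5 and 63.4 (difference 1.503, SE 0.48; adjusted p = 0.493). Apoe, a lipid carrier from the cholesterol and lipid list (median 0.07 over 45), stood at 827, 903 and 954 CPM against 445, 384 and 293 (difference 1.26, SE 0.36; adjusted p = 0.412). Sqle, an enzyme of cholesterol synthesis, was opposite, at 14.3, 23.04 and 12.1 CPM against 43.4, 68.1 and 85.2.

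The 9 mitochondrially encoded genes tested had a median of 0.52, but -0.0043 without irradiated replicate 1, and their sums overlapped. Medians were -0.23 over 17 elastic fibre genes, 0.10 over 30 smooth muscle and actomyosin genes and 0.09 over 19 noncoding RNAs. The median was -0.17 over 79 cytosolic ribosomal proteins, -0.13 over 40 nucleolar genes of ribosome biogenesis (Rrp1b among them), -0.01 over 34 proteasome subunits and -0.15 over 38 genes of endoplasmic reticulum stress and folding. Over 38 genes of the BCL2 family and cell death it was -0.23, with 5 all below and none all above. Bnip3, a mitophagy receptor, stood at 60.9, 107 and 156 CPM against 224, 183 and 323 (adjusted p = 0.493). Herpud1, of the response to misfolded proteins, stood at 154, 165 and 105 CPM against 51.4, 67.5 and 67.0 (adjusted p = 0.493).

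**Figure D4:**
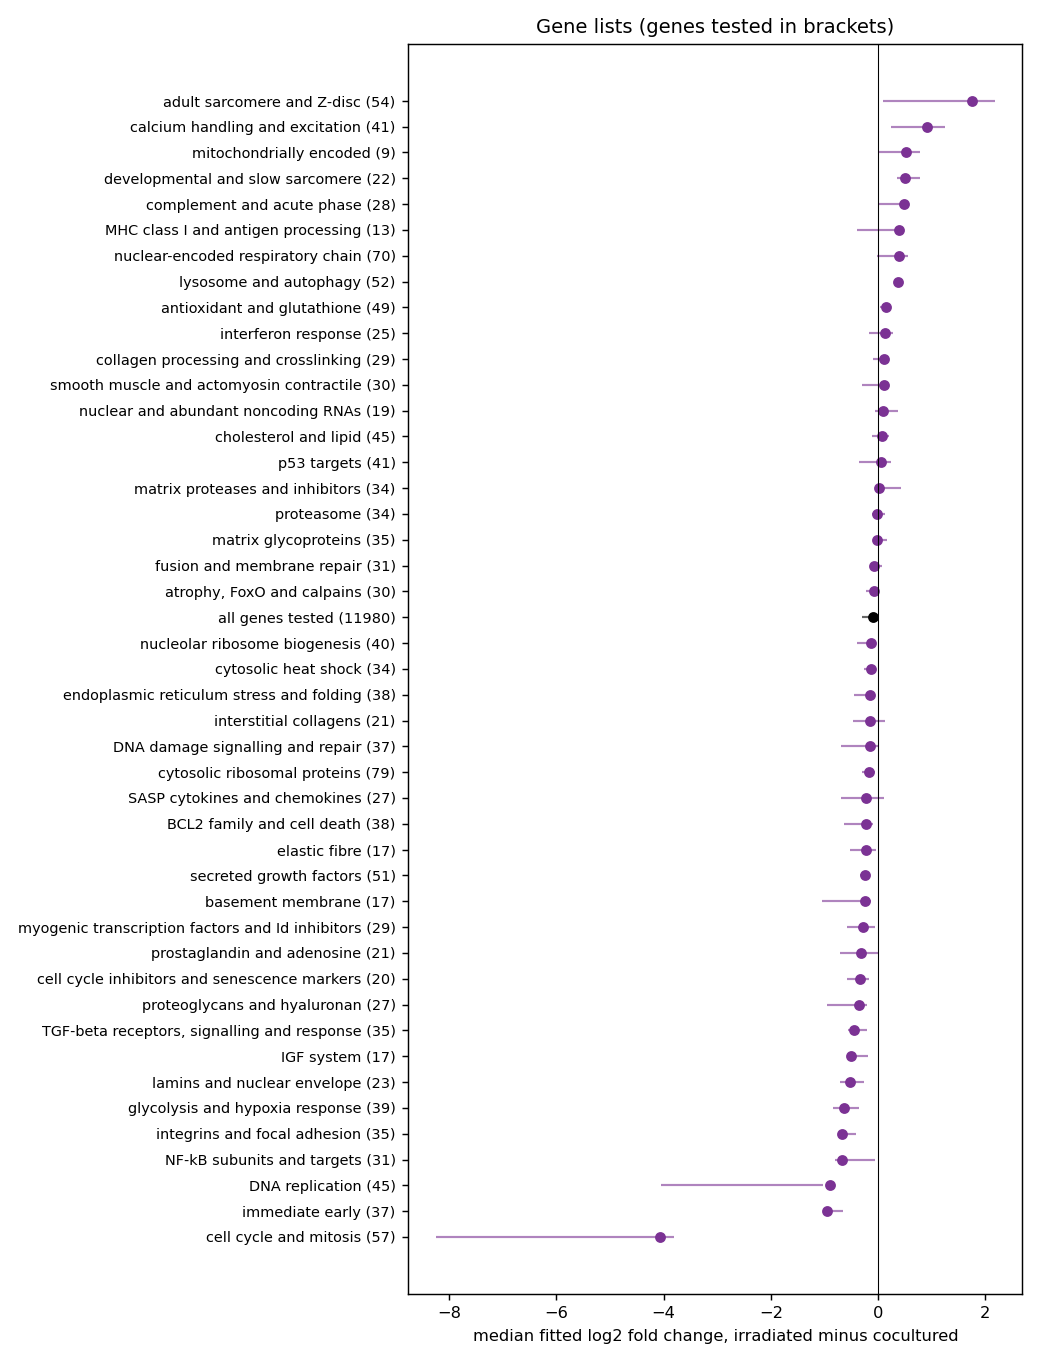
Median fitted log2 fold change, irradiated minus cocultured (x axis), of each of the 44 gene lists and of all 11980 genes (black). Dots give the median with all libraries, lines the range over leaving out each irradiated or cocultured library in turn. The cell cycle list lies lowest, at -4.06; the adult sarcomere list, at 1.76, reaches down to 0.10.

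**Figure D5:**
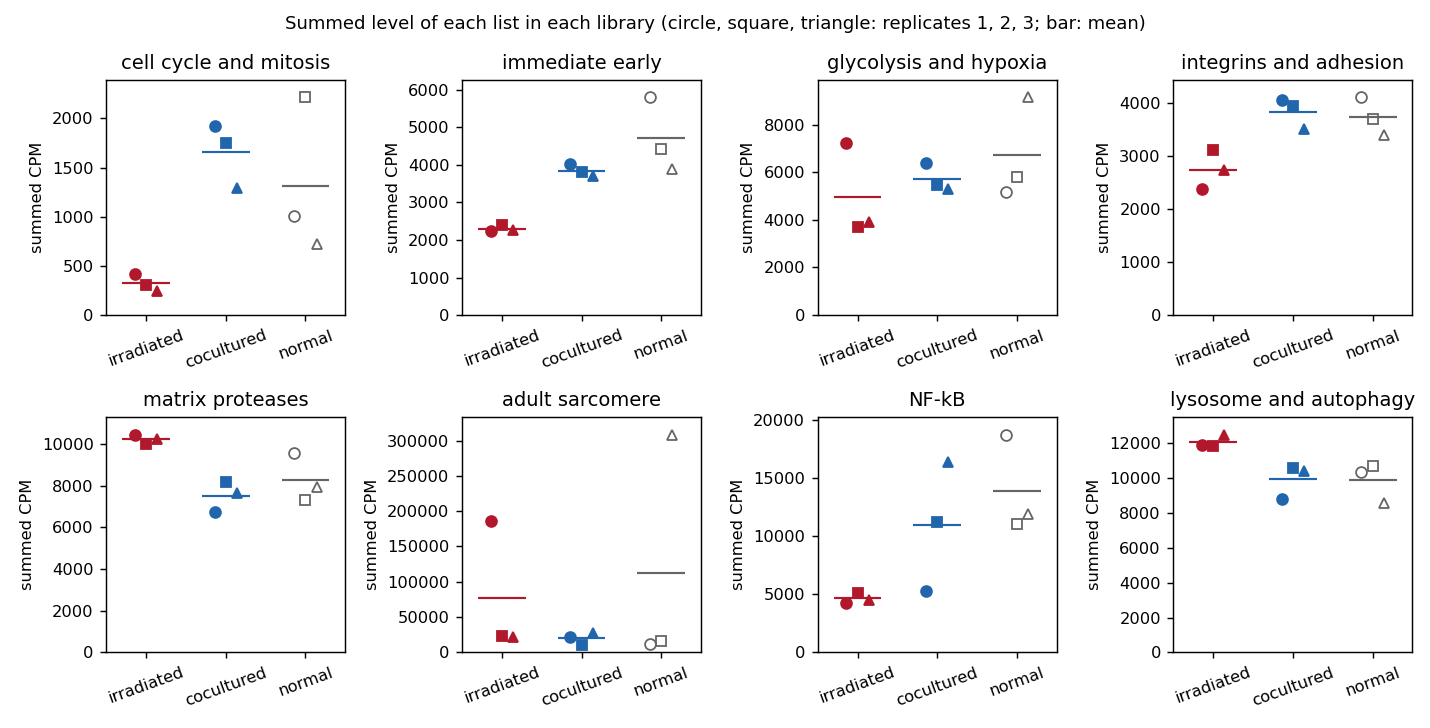
Summed normalised CPM (y axis, from 0) of 8 lists in each irradiated, cocultured and normal library, with a bar at the group mean. Under the TMM scaling the irradiated libraries are below the cocultured ones for cell cycle, immediate early, integrin and NF-kB genes and above them for matrix proteases and lysosome genes. In the adult sarcomere panel irradiated replicate 1 and normal replicate 3 stand alone.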

How the data were processed

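RNA of 9 C2C12 constructs (100 ng each) was made into QuantSeq 3' FWD libraries and sequenced on a NextSeq 550 with 75 bp single-end reads, per the labels' protocols. The tools FastQC, STAR, HTSeq and the genome builds GRCm39 and mm39 are named, per the submitters' processing notes. Their versions, the annotation, the use of strand and of duplicates were not given in the sources used here. Reads of overlapping, antisense or near-identical genes may therefore be mixed. The deposited values are raw counts per gene symbol without normalization, per the file headers. No molecular identifiers are stated, so bounds and intervals cover no more than counting error. Columns were taken to samples by the series' own record, since the numbers in the column names run 1 above those of the labels.

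Groups came from the titles. Counts of all 9 libraries were fitted in edgeR 4.0.16 (R 4.3.3) with TMM scaling, filterByExpr and the quasi-likelihood test, with group as the only term. The contrast was irradiated minus cocultured, with Benjamini-Hochberg adjustment over 11980 genes and calls under 0.05. The code was tested on simulated data. Alternatives used DESeq2 1.42.0, limma voom 3.58.1, other scalings and filters, a replicate block and left-out libraries. A group without counts was given a floor of 3 counts, and a fold given as at least a value sets the other group's mean against it. The 95% counting intervals were binomial, on counts pooled within each group. Replicates differed well beyond counting noise, and none was treated as a duplicate. Lists are described by counts and medians, with no test of their own.

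Genes were named by a fixed rule: called genes (up to 10 a direction, at least 10 CPM, no overlap), a panel of 16, and up to 4 called members of each list or else the 2 of smallest p. Wfdc17, Sprr1a, Trib1, Axl, Plpp3, Cbr2, Stc1, Mylk3, Acta1, Myh4, Cxcl12, Hgf, Fgf7, Cdk1, Kif11, Junb, Npc2 and the marker genes were added after their values were seen. The comparison, lists and rule were chosen with earlier results of these data known. A gene that the rule names but that may not be named in the text is not reported here.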

Additional observations from a re-analysis of the deposited data

How the results depend on the processing

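The number of calls moved more with the test than with the scaling, while the 4 genes called lower were called under each test and scaling of all 9 libraries. Higher and lower calls numbered 138 and 337 with DESeq2, 22 and 83 with limma voom, 1 and 7 with edgeR's robust setting, 59 and 94 with no filter on low counts, 0 and 2 over genes of at least 50 CPM, 0 and 9 with library totals, 0 and 4 with DESeq2-type or upper quartile scaling or without mitochondrial genes and Gm26917, and 0 and 8 at an adjusted p under 0.1. With the 6 libraries alone there were 0 and 0. Leaving out 1 library gave 0 to 1 higher and 1 to 96 lower. Without normal replicate 3 and irradiated replicate 1 together there were 1 and 20, and without irradiated replicates 2 and 3 together 203 and 246. Apart from what the construction of each alternative shows (fewer libraries or genes), the cause was not tested.

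A replicate block gave 1 and 6 calls with the 6 libraries, where Rrp1b and Gap43 were not called (adjusted p = 0.265 each), and 0 and 12 with all 9, which kept the 4 genes. Same-numbered irradiated and cocultured libraries correlated in their deviations from the group means at 0.0267, 0.0184 and -0.0130. Pairs with different numbers ran from -0.0385 to 0.0183. Whether same-numbered libraries share more than a number was not tested.

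Of 114 genes followed, 109 kept their direction in every alternative that gave a value. The other 5 reversed, none of them called. With 1 library, or 1 of the pairs above, left out, the log2 difference ran from -6.74 to 0.37 for Ccl2, from -0.22 to 1.30 for Col1a1, from -0.37 to 0.93 for Myog, from -1.79 to 0.53 for Myh3 and from -0.34 to 1.31 for Glb1. Myog was -0.17 with limma voom and -0.11 with library totals, and Myh3 was -0.076 with the replicate block in 6 libraries. Genes under 50 CPM are limited by the uncounted genes of irradiated replicates 2 and 3.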
